A study of Mus musculus with 5 samples.

Results

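The hair follicle keratinocytes described here are 60 of the 6430 cell barcodes kept from 3 droplet libraries of mouse skin. They were chosen by their own transcript counts: at least 1% of unique molecular identifiers (UMIs, each a counted transcript molecule) from the basal keratins Krt5 and Krt14, and at least 3 UMIs in sum from Sox9, Lhx2, Postn, Cd34 and Lgr5. Barcodes with 10 or more UMIs of the inner root sheath keratins Krt25, Krt27, Krt28 and Krt71 were left out, as were those with more than 1 UMI of the cycling genes Mki67, Top2a, Cenpf and Birc5. Barcodes with more than 2 UMIs of Aldh3a1, Adh7, Cidea and Apoc1, or with any UMI of the leukocyte gene Ptprc, were also left out. Lesional whole skin held 14 of these barcodes, non-lesional epidermis 36 and untreated epidermis 10. They are called members below, and every level of a gene used in the choice is a description of the choice.

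The study sampled psoriasis-like skin by single-cell RNA sequencing, with 1 library in each of 5 groups. Lesional whole skin came from K5. Pp6fl/fl mice of 18 weeks with lesions, non-lesional epidermis from K5. Pp6fl/fl mice of 10 weeks without lesions, and untreated epidermis from wild-type mice of 10 weeks. All 3 groups are labelled C57BL/6 with treatment none. The other libraries, dermis of wild-type mice of 10 weeks with imiquimod or without treatment, lie outside the choice, and 1 of 4991 and 0 of 521 kept barcodes there passed the same gates. The genotype label carries a floxed Pp6 allele and the prefix K5, the usual short name of keratin 5, and states nothing further on how recombination was driven. The labels give neither the number of animals nor whether they were pooled. Among the 14 lesional members, 7 held Xist and no Y-linked UMI and 5 held Y-linked UMIs and no Xist, while no member of either epidermis library held Xist.

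The outer root sheath is the outermost epithelial layer of the hair follicle and is continuous with the basal layer of the epidermis. Its bulge, below the sebaceous gland, houses slow-cycling stem cells that rebuild the follicle at each hair cycle and can move into the epidermis after wounding. Sox9, Lhx2, Nfatc1, Tbx1 and Runx1 are transcription factors of this compartment, and high BMP signalling together with WNT inhibitors is known to hold its cells at rest. Ppp6c, the Pp6 gene, encodes the catalytic subunit of protein phosphatase 6.

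Ppp6c itself was too sparse to check the genotype labels in these cells. The lesional members held 3 Ppp6c UMIs, the non-lesional members 6 and the untreated members 0, where 0 UMIs in the untreated members allows up to 70.7 CPM (UMIs per 1000000 UMIs summed), the level of 3 UMIs. A 3′ count can also lie outside the deleted part of a gene, so it need not report a deletion.

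The libraries differed in depth and in background, and each value below carries counting error only, since there was 1 library per group and no test between groups was possible. The members held 143499 UMIs in lesional skin, 130699 in non-lesional epidermis and 42407 in untreated epidermis, so that 1 UMI corresponds to 6.97, 7.65 and 23.6 CPM in that order. A lesional member held a median of 7623.5 UMIs (range 2250 to 26849), a non-lesional member 2752.5 (1182 to 9752) and an untreated member 4159.5 (1699 to 8545). Background Krt14 was highest in non-lesional epidermis, where leukocyte barcodes, which should lack keratins, held 3409 CPM, against 109 CPM in lesional skin and 781 CPM in untreated epidermis. Krt14 does not rank all free RNA. Of 10 fibroblast genes compared, 9 were higher and 0 lower in lesional than in non-lesional leukocyte barcodes. The lesional library also drew on another set of cell barcodes: it shared no barcode with either epidermis library and 126 of its 937 7-base barcode starts with the 479 of non-lesional epidermis, whereas untreated and non-lesional epidermis shared 397 of their 398 and 479 starts. The epidermis libraries had 6 whole barcodes in common, 2 of them members. The Xist and Y-linked UMIs given above also differed between lesional and non-lesional members. Tissue, age, lesion, sex, animals, depth and barcode set therefore cannot be told apart when lesional skin is set against non-lesional epidermis.

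Members made up 0.528% of kept barcodes in lesional skin (14 of 2652, exact Clopper-Pearson 95% interval 0.289 to 0.884%). The share was 1.25% in non-lesional epidermis (36 of 2873, 0.879 to 1.73%) and 1.10% in untreated epidermis (10 of 905, 0.531 to 2.02%). Lesional skin includes the dermis, so its denominator is another population. Among barcodes past the Krt5 and Krt14 gate the shares were 8.59% in lesional skin (14 of 163, 4.78 to 14.0%), 3.02% in non-lesional epidermis (36 of 1194, 2.12 to 4.15%) and 2.87% in untreated epidermis (10 of 349, 1.38 to 5.21%).

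The gates act on raw UMIs, so that the ceilings pass a shallow barcode more readily than a deep one and the follicle minimum does the reverse. Members held a median of 7623.5 UMIs in lesional skin, 2752.5 in non-lesional epidermis and 4159.5 in untreated epidermis, beside 25811, 10573 and 2311 UMIs over all barcodes past the keratin gate. Of the barcodes past both the keratin and the follicle gate, 130 in lesional skin, 195 in non-lesional epidermis and 27 in untreated epidermis, the ceiling on Aldh3a1, Adh7, Cidea and Apoc1 stopped 115, 157 and 17 in that order. The stopped barcodes had a median of 28092 UMIs in lesional skin, 12085 in non-lesional epidermis and 9526 in untreated epidermis. When the ceilings on inner root sheath, cycling and the 4 last-named genes were read from counts thinned to 2000 UMIs, and shallower barcodes were left out, 84 of 2283 lesional, 92 of 2503 non-lesional and 15 of 626 untreated barcodes passed. A stricter keratin gate of 3% kept 2, 0 and 1 members, since the median share of Krt5 and Krt14 in a member was 1.16% in lesional skin, 1.23% in non-lesional epidermis and 1.57% in untreated epidermis.

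Most members carried more than 1 of the 5 follicle genes. At least 2 were present in 11 of 14 lesional, 34 of 36 non-lesional and 8 of 10 untreated members, and all 5 in 2, 1 and 3 of them. Sox9, which specifies the outer root sheath and bulge lineage, was the sole gate gene of 3 lesional and 2 untreated members. Its level was 1101 CPM in lesional members (158 UMIs, present in 14 of 14), 398 CPM in non-lesional members (52 UMIs, 25 of 36) and 943 CPM in untreated members (40 UMIs, 9 of 10).

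Lhx2, a LIM-homeodomain factor that maintains follicle stem cells, stood at 153 CPM in lesional members (9 of 14), 360 CPM in non-lesional members (19 of 36) and 354 CPM in untreated members (8 of 10). Postn, a secreted matrix protein, stood at 551, 520 and 283 CPM over the same groups. Cd34, a surface glycoprotein of bulge stem cells in the mouse, was present in 2 lesional (55.7 CPM), 11 non-lesional (168 CPM) and 4 untreated members (448 CPM). Lgr5, an R-spondin receptor of the lower bulge and hair germ, was present in 7, 18 and 6 members (97.6, 207 and 236 CPM), and Cd34 and Lgr5 occurred together in 2, 8 and 3.

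Postn and Cd34 are also fibroblast genes, at 1306 and 584 CPM in lesional fibroblast barcodes. Of the 11 fibroblast markers, Sparc, a matricellular protein, held 32 of 39 UMIs in lesional members, 32 of 55 in non-lesional members and 11 of 23 in untreated members. In lesional members Dcn had 3 UMIs, Col3a1 2, Col1a1 and Lum 1 each, and the other 6 markers none. In non-lesional members Col6a1 had 11 UMIs (84.2 CPM) against 2 in other keratinocytes (3.83 CPM) and was higher by the interval rule defined below, Dcn had 7, Col1a2 4 and Col1a1 1, and the remaining markers none. The summed fibroblast list reached 272 CPM in lesional, 421 CPM in non-lesional and 542 CPM in untreated members, against 230, 153 and 177 CPM in other keratinocytes of the same libraries.

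Leukocyte RNA was present in the non-lesional members at about the level of the other keratinocytes of that library. The summed macrophage, dendritic and Langerhans cell list stood at 48.8 CPM in lesional, 1829 CPM in non-lesional and 118 CPM in untreated members, beside 1816 CPM in other non-lesional keratinocytes. Cd74, the MHC class II invariant chain, had 1, 102 and 1 UMIs in the 3 groups of members. Its level was 780 CPM in non-lesional members and 788 CPM in the other keratinocytes of that library. The T cell and innate lymphoid list stood at 34.8, 834 and 236 CPM, beside 1134 CPM in other non-lesional keratinocytes.

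Krt15, a type I keratin long used to mark the bulge, was named as a marker of these cells but was not used to choose them. It was present in 11 of 14 lesional members at 1833 CPM (263 UMIs, exact Poisson 95% interval 1618 to 2068), with single barcodes running between 0 and 17066 CPM around a median of 662 CPM. All 36 non-lesional members held it, at 14744 CPM (1927 UMIs, 14093 to 15417), with barcodes between 1284 and 41898 CPM around a median of 16838 CPM. All 10 untreated members held it at 12474 CPM (529 UMIs, 11434 to 13584), between 919 and 32236 CPM around a median of 10755 CPM. The lesional barcodes lay mostly below the other groups but overlapped both. Krt15 lies on chromosome 11 at 100131758 to 100135928 on the minus strand (GRCm38, GENCODE M21).

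Krt15 did not set the members apart from other keratinocytes of the same library. Other non-cycling keratinocytes, which passed the same gates with under 3 follicle UMIs, held 9499 CPM in non-lesional epidermis (167 barcodes) and 11030 CPM in untreated epidermis (144 barcodes). The ratios of members to others were 1.55 (95% interval 1.47 to 1.64) and 1.13 (1.03 to 1.24). The label as bulge and outer root sheath thus comes from the choice by gate genes rather than from Krt15. In the epidermis libraries the follicle genes described next stand beside it, though the choice itself favoured them. Lesional skin held 7 other keratinocytes, too few for such a contrast. These 7 held 110 Krt15 UMIs (6320 CPM), above the 1833 CPM of the lesional members. Of the 14 lesional members, 7 held under 4 Krt15 UMIs. Just inside the follicle gate, at 3 UMIs, Krt15 stood at 19037 CPM in 5 non-lesional barcodes and 1412 CPM in 2 untreated barcodes. Just outside it, at 2 UMIs, it stood at 12956 CPM in 10 non-lesional barcodes and 9284 CPM in 7 untreated barcodes.

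**Figure D1:**
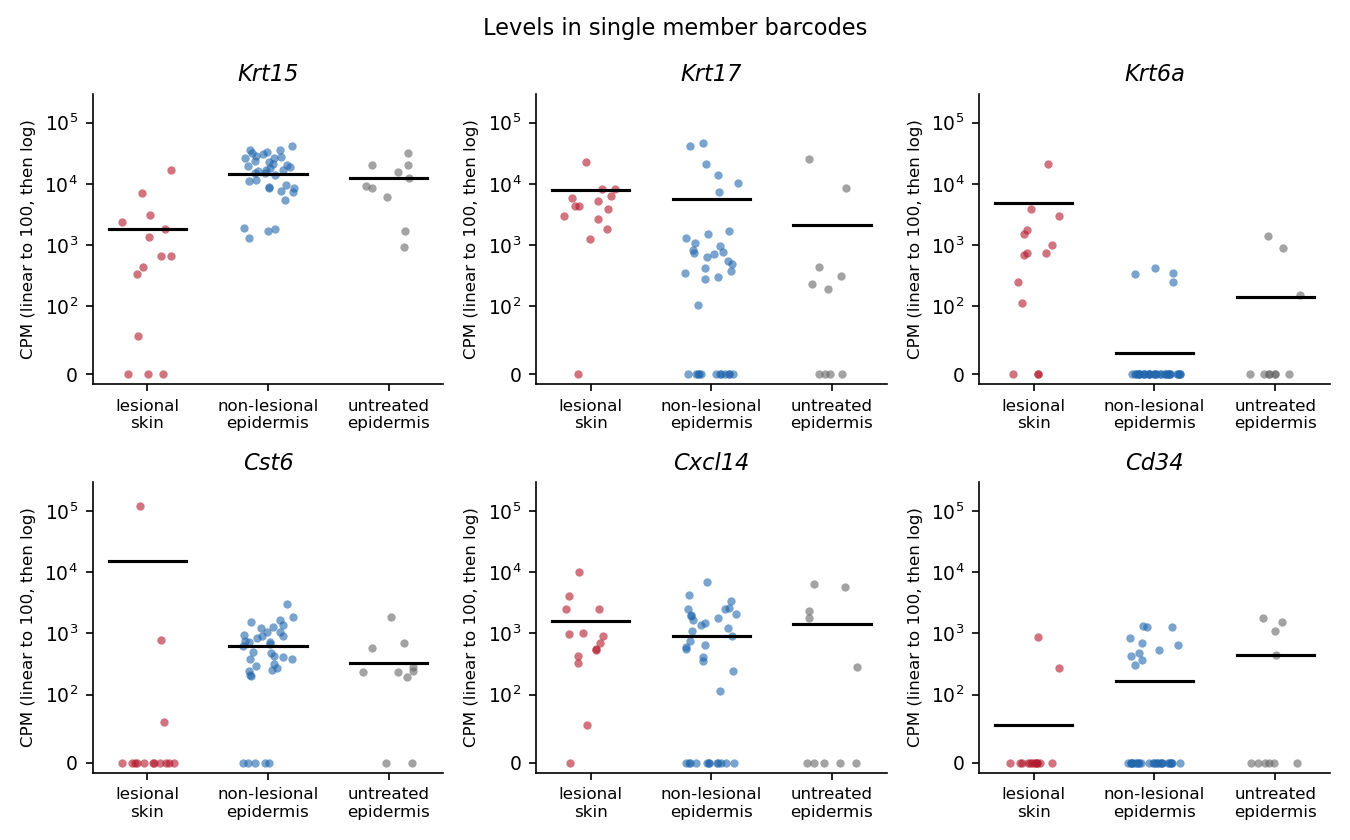
Levels of 6 genes in single member barcodes of lesional skin (14), non-lesional epidermis (36) and untreated epidermis (10); each point is 1 barcode in CPM, on an axis linear to 100 CPM and logarithmic above, and each bar is the level summed over all members of a library. Krt15 is present in all epidermis members and in 11 of 14 lesional members, and the Cst6 bar of lesional skin follows a single barcode.

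In non-lesional epidermis the members had more of many follicle genes beyond the gate genes and less of several basal interfollicular genes than other keratinocytes. A gene was counted as higher or lower when the 95% counting interval of the CPM ratio lay wholly beyond 1.5-fold. Of 46 follicle genes not used in the choice, 30 had enough UMIs to compare (at least 10 over both sides and 10 CPM on either), and 20 of these were higher in members and 0 lower. Over all 6597 genes compared, 2.91% were higher and 0.819% lower. The median log2 ratio of the follicle list was 2.08, against 0.09 over all compared genes. Of 11 comparable basal interfollicular genes, 7 were lower in members and 1, Fst, was higher, with a median of −1.68. With the ceilings read from thinned counts (92 members), 1 of 11 basal genes was lower. The summed basal list, Krt5 and Krt14 included, stood at 16320 CPM in members and 27346 CPM in others. Barcodes were sorted on 5 follicle genes here, so genes that travel with these were favoured by the choice, and no test was made.

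Krt17, a type I keratin of the outer root sheath and of activated epidermis, had 740 UMIs in 24 of 36 members (5662 CPM), against 130 UMIs in other keratinocytes (249 CPM), a ratio of 22.8 (18.9 to 27.6). Within the members it ran between 0 and 45986 CPM with a median of 457 CPM, so most of the summed level came from a few barcodes. Cxcl14, a chemokine of resting epithelium, stood at 910 CPM in members and 327 CPM in others (2.78, 2.18 to 3.54).

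Among 25 comparable follicle stem cell transcription factors, 11 were higher in members and 0 lower, with a median log2 ratio of 1.21. The lists share genes, so their counts are not separate results. Runx1, Barx2, Tbx1, Nfatc1, Id2 and Id3 were also among the higher genes of the follicle list above. Runx1, a regulator of follicle stem cell activation, stood at 176 CPM in members and 19.1 CPM in others (9.20, 4.21 to 21.7). Barx2, a homeobox factor of follicle epithelium, stood at 199 and 23 CPM (8.67, 4.22 to 18.9). Tbx1, a T-box factor of bulge stem cells, reached 153 CPM in members and 36.3 CPM in others (4.21, 2.13 to 8.34). Nfatc1, which holds bulge stem cells at rest, had 10 UMIs in members (76.5 CPM) and 9 in others (17.2 CPM), a ratio of 4.44 (1.62 to 12.4). Nfib, Foxp1, Sox4 and Hopx were also higher, at 2.33, 2.51, 7.27 and 2.75-fold.

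Antagonists and receptors made up the WNT genes that were higher. Of 28 comparable WNT genes, 7 were higher and 1 lower, and Wif1, Dkk3, Fzd2 and Fzd7 were already counted in the follicle list. Wif1, a secreted WNT inhibitor, had 17 UMIs in 11 members (130 CPM) and 2 UMIs in others (3.83 CPM), a ratio of 34.0 (8.07 to 303). Dkk3 stood at 245 CPM in members and 34.4 CPM in others (7.11, 3.87 to 13.5), and Sostdc1, an antagonist of BMP and WNT, at 559 and 161 CPM (3.48, 2.50 to 4.81). The receptors Fzd1, Fzd2 and Fzd7 were 7.20, 7.33 and 5.78-fold higher, and the R-spondin receptor Lgr4 5.00-fold higher. The ligand Wnt4 was lower, with 2 UMIs in members (15.3 CPM) and 67 in others (128 CPM).

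Of 26 comparable BMP and TGF-beta genes, 8 were higher in members and 0 lower, and the rest were not counted either way (median log2 ratio 0.86). Id1, Id2 and Id3, transcriptional targets of BMP signalling, stood at 780, 673 and 1270 CPM in members, against 262, 214 and 568 CPM in others. Fst, a secreted inhibitor of activin and BMPs, stood at 390 CPM in members and 51.7 CPM in others (7.55, 4.65 to 12.5). Of 5 comparable Hedgehog genes, Ptch1 (11-fold, 3.26 to 47.4), Gas1 (4.87-fold, 3.66 to 6.49) and Boc (4.33-fold, 1.82 to 10.4) were higher and 0 were lower. Ptch1 is the Hedgehog receptor and a target of the pathway, and Gas1 and Boc are its co-receptors. Fst, Id2, Id3, Ptch1 and Gas1 were already counted in the follicle list.

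Growth factor and matrix genes gave single members rather than whole lists. Of 17 comparable FGF, EGF and IGF genes 4 were higher, among them the neurotrophin Bdnf with 12 UMIs in members and 1 in others (48.0, 7.10 to 2052), and Igfbp2 and Igfbp3 were lower. Of 30 comparable basement membrane and adhesion genes 2 were higher, Egfl6 (13.1, 5.46 to 36.3) and Fbln1 (8, 2.14 to 36.3), and Thbs1 was lower. Egfl6 is a matrix protein of the upper bulge in the mouse. Ctgf, a matricellular protein, stood at 222 CPM in members and 11.5 CPM in others (19.3, 7.89 to 56.9).

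Among the basal interfollicular genes, Igfbp2 had 3 UMIs in members (23 CPM) and 111 in others (212 CPM), a ratio of 0.108 (0.0220 to 0.324). Ly6a, which encodes Sca-1, a surface protein of interfollicular and upper follicle keratinocytes, stood at 38.3 CPM in members and 329 CPM in others (0.116, 0.0373 to 0.277). Ifitm3 stood at 168 and 551 CPM, and the metallothionein Mt2 at 1086 and 2692 CPM (0.404, 0.337 to 0.480). Ccnd2, a G1 cyclin, stood at 237 CPM in members and 930 CPM in others (0.255, 0.171 to 0.367), and the cell cycle inhibitor Cdkn1c at 53.6 and 9.57 CPM (5.60, 1.53 to 22.4).

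**Figure D2:**
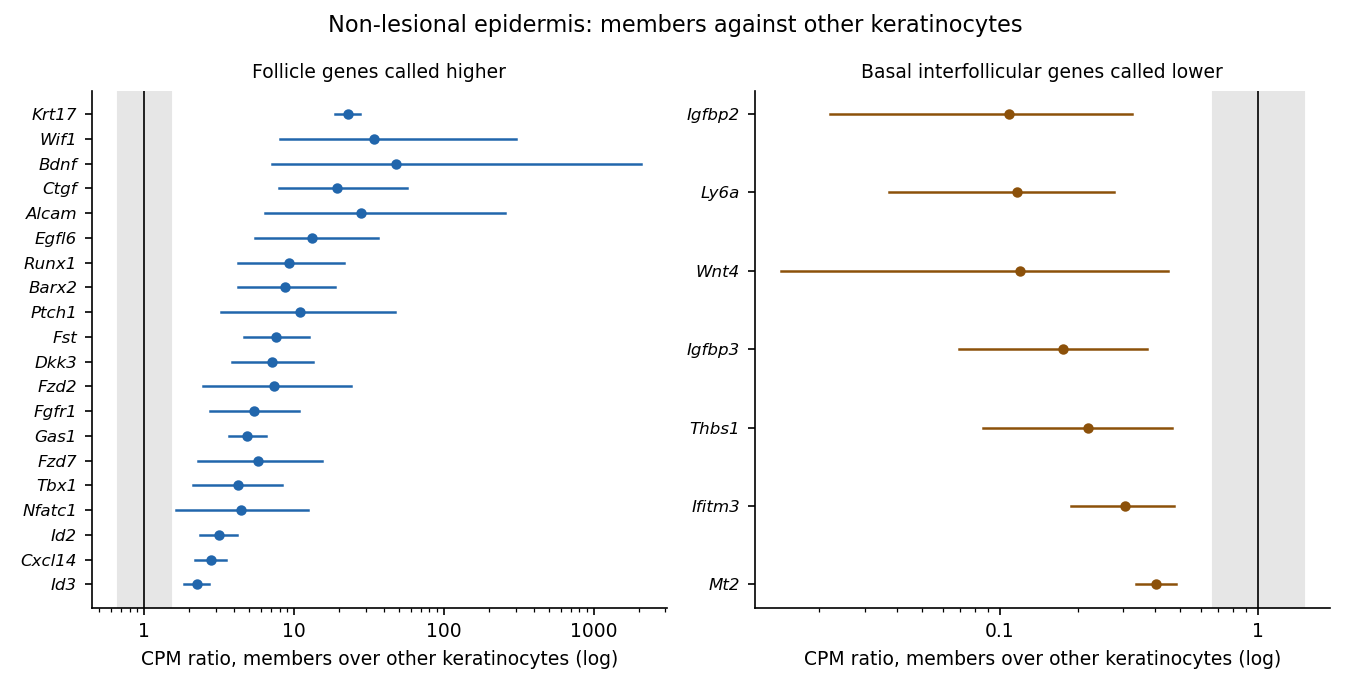
CPM ratios of members (36 barcodes) over other non-cycling keratinocytes (167 barcodes) in non-lesional epidermis, on logarithmic axes; points are ratios, lines are 95% counting intervals and the grey band spans 1.5-fold either way. The left panel holds the 20 follicle genes that were higher and the right panel the 7 basal interfollicular genes that were lower, and no line reaches the band.

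Beyond the lists, 112 genes were at least 50 CPM, beyond 2-fold by the interval and above their leukocyte background in members, and 25 were likewise lower. The highest ratio belonged to Aspn, a small leucine-rich matrix proteoglycan, with 47 UMIs in 8 members (360 CPM) and 2 UMIs in others (3.83 CPM), a ratio of 94.0 (24.6 to 799). Aspn is also a fibroblast gene, at 522 CPM in lesional fibroblast barcodes. Non-lesional epidermis held 0 fibroblast barcodes, so its fibroblast background could not be set beside these genes. Pthlh, parathyroid hormone-related protein, had 42 UMIs in 8 members (321 CPM) and 4 in others (7.65 CPM), a ratio of 42.0 (15.2 to 161). Nrtn, the GDNF family ligand neurturin, stood at 780 CPM in members and 32.5 CPM in others (24.0, 14.3 to 42.8).

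Tgm5, a transglutaminase, was spread more widely, with 37 UMIs in 20 of 36 members (283 CPM) and 11.5 CPM in others (24.7, 10.3 to 71.5). Cdc42ep3, an effector of Cdc42, had 39 UMIs in 16 members (26.0, 10.9 to 75.1). Ank, Rflnb, Cald1, Spink5, Calml3 and Shisa2 completed the 15 highest beside Krt17, Wif1, Bdnf and Ctgf, with ratios between 17.3 for Calml3 and 72.0 for Ank.

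On the lower side, Gdpd2 had 0 UMIs in members and 63 in others (121 CPM), at least 5.25-fold lower when members are set at 3 UMIs. Il33, an epithelial alarmin, had 2 UMIs in members (15.3 CPM) and 112 in others (214 CPM), a ratio of 0.0714 (0.0085 to 0.264). Serpinb2 stood at 45.9 and 474 CPM, Clca3a2 at 38.3 and 555 CPM, and the transcription factor Maf at 45.9 and 270 CPM. The neurotrophin receptor Ngfr (0 and 36 UMIs) was lower as well, as were Slc22a4, Acbd5, Foxq1, Oas1f, Hlf, Igfbp2, Ly6a and Wnt4.

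Differentiation keratins in non-lesional members did not exceed background. Krt10 stood at 750 CPM and Krt2 at 490 CPM in members, against 1567 and 1251 CPM in other keratinocytes and 2137 and 1245 CPM in leukocyte barcodes of that library. Cst6 likewise stood at 635 CPM in members and 1221 CPM in leukocytes. Sbsn and Krtdap, secreted products of suprabasal keratinocytes, were the suprabasal genes that were higher in members (4, 2.94 to 5.45, and 1.83, 1.54 to 2.16).

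In untreated epidermis the same contrast gave 11 of 14 comparable follicle genes higher and 0 lower, with a median log2 ratio of 1.96, against 4.75% higher and 1.74% lower among all 3619 genes compared. Dkk3 stood at 424 CPM in 10 members and 20.1 CPM in 144 others (21.1, 7.56 to 72.8). Sfrp1, another secreted WNT antagonist, stood at 330 and 28.1 CPM (11.7, 4.43 to 34.3), Tbx1 at 354 and 24.1 CPM (14.7, 5.38 to 46.1) and Cxcl14 at 1438 and 233 CPM (6.17, 4.24 to 9). Krt17 was 3.81-fold higher (2.90 to 5.00), but 2 barcodes held 56 and 30 of its 91 UMIs in members. Its median in single members was 214 CPM, below the 563 CPM summed over others. Igfbp3 and Igfbp2 had 0 UMIs in members and 98 and 76 in others, at least 5.57 and 4.32-fold lower.

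The other keratinocytes of this library were unusual in their mitochondrial share, which must stand beside these values. A median of 0.0383% of their UMIs was mitochondrial and 106 of 144 lay under 0.1%, while the members had a median of 4.42% with 1 of 10 under 0.1%. All 12 mitochondrial genes compared were higher in members. Against the 38 other keratinocytes with at least 0.1%, 6 of 13 comparable follicle genes were higher, with a median log2 ratio of 1.19. These 6 were Id3, Dkk3, Sfrp1, Krt17, Cxcl14 and Tbx1, where Krt17 again came mostly from the 2 barcodes given above. What the low mitochondrial share contributed to the remaining calls was not tested.

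The calls of the epidermis libraries overlapped: 70 genes were higher in members in both, which is 70 of 197 in non-lesional and 70 of 177 in untreated epidermis, gate genes included. The follicle gate genes are high by the choice, so part of the overlap is a description of it. Without gate genes, 192 of 6597 genes compared (2.91%) were higher in non-lesional and 172 of 3619 (4.75%) in untreated epidermis. The overlap was not set against the number of genes compared in both. The genes lower in both numbered 20, of 55 in non-lesional and 64 in untreated epidermis. Lesional skin held 7 other keratinocytes, too few for this contrast.

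The non-lesional members were not uniform, and Krt17 divided them. In 6 of the 36 it had between 36 and 299 UMIs, and in the remaining 30 between 0 and 9, a division chosen after the values were seen and given as a description. The Krt17-rich barcodes held a median of 5140.5 UMIs and 2.59% mitochondrial UMIs, and the remaining barcodes 2397 UMIs and 5.21%. Aspn had 44 UMIs in 5 of 6 Krt17-rich barcodes (1404 CPM) and 3 UMIs in 3 of 30 others (30.2 CPM). Pthlh had 39 and 3 UMIs, Nrtn 70 and 32, Calml3 49 and 16, and Spink5 34 and 9. Aspn and Pthlh, the highest named genes of the members, thus came mostly from 6 barcodes. Krtdap stood at 4979 CPM in the Krt17-rich barcodes and 493 CPM in the remaining ones (10.1, 7.28 to 14.2).

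Several genes of bulge stem cells were lower in the Krt17-rich barcodes, among them the gate genes Lgr5 and Cd34. Krt15 stood at 5777 CPM in the Krt17-rich barcodes and 17571 CPM in the remaining ones (0.329, 0.281 to 0.383). Lgr5 had 0 UMIs in the Krt17-rich barcodes and 27 in the remaining ones, and Cd34 0 and 22. Id1 stood at 128 and 986 CPM, Id2 at 160 and 835 CPM, and Cxcl14 at 319 and 1097 CPM. Sox9 (287 and 433 CPM), Lhx2 (319 and 372 CPM), Postn (766 and 443 CPM) and Nfatc1 (128 and 60.4 CPM, from 4 and 6 UMIs) differed less than the 1.5-fold interval rule required. Without the Krt17-rich barcodes, 19 follicle genes were higher in members than in other keratinocytes and Krt17 was no longer among them.

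**Figure D3:**
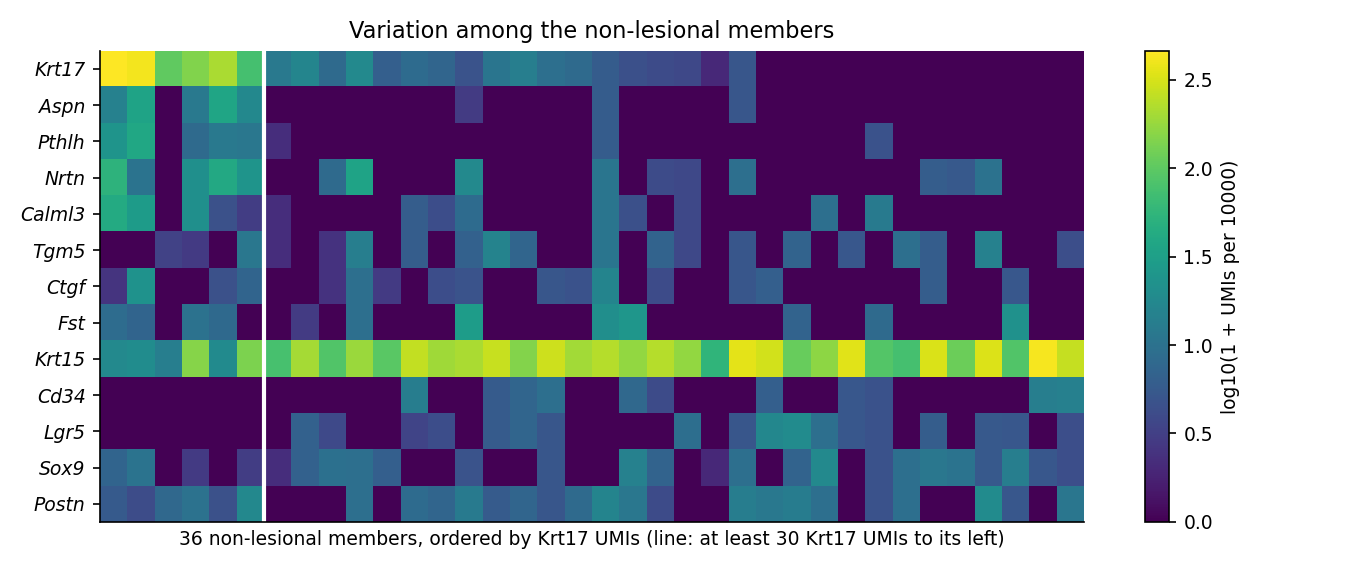
Levels of 13 genes in the 36 non-lesional members, as log10 of 1 plus UMIs per 10000, with 1 column per barcode ordered by Krt17 UMIs from left to right. The 6 columns left of the white line have at least 30 Krt17 UMIs; Aspn, Pthlh and Nrtn are mostly found there, and Cd34 and Lgr5 are found to the right of the line alone.

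Members of lesional skin, set against members of non-lesional epidermis, showed less Krt15 and more of the keratins and stress genes of activated epidermis. Of 4062 genes compared, 6.94% were higher and 5.49% lower in lesional members. Among 9 comparable stress keratin and alarmin genes, 5 were higher and 0 lower, with a median log2 ratio of 3.03 against −0.12 over all compared genes. Krt15 had a ratio of 0.124 (0.109 to 0.141). Of 30 comparable follicle genes, 1 was higher and 6 lower. With members thinned to 2000 UMIs, 3 of 20 were lower.

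Krt6a, a type II keratin of the companion layer and of wounded or psoriatic epidermis, had 710 UMIs in 11 of 14 lesional members (4948 CPM), against 4 UMIs in 4 of 36 non-lesional members (30.6 CPM) and 6 UMIs in 3 of 10 untreated members (141 CPM). The lesional to non-lesional ratio was 162 (62.9 to 595). A single barcode held 575 of the 710 UMIs. Krt16, its usual partner in activated epidermis, had 52 UMIs in 6 lesional members (362 CPM), 2 UMIs in non-lesional members (15.3 CPM) and 0 in untreated members, a lesional to non-lesional ratio of 23.7 (6.23 to 201). The 7 other keratinocytes of lesional skin, too few for a contrast, held 49 Krt6a UMIs (2815 CPM) and 4 Krt16 UMIs (230 CPM). Fabp5, a fatty acid carrier raised in psoriasis, stood at 2063 CPM in lesional and 168 CPM in non-lesional members (12.3, 7.94 to 19.9).

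The lesional members included 2 deep barcodes that weighed on many genes. The first held 17874 UMIs, of which 0.0168% were mitochondrial, and contained 600 of 600 Car6 UMIs, 1043 of 1044 Pinlyp UMIs, 2155 of 2177 Cst6 UMIs and 293 of 294 Krt79 UMIs. Krt79 and Cst6 are genes of the upper follicle and infundibulum. The second held 26849 UMIs, with 575 of 710 Krt6a UMIs and 617 of 1156 Krt17 UMIs. These 2 barcodes held 1 and 3 Krt5 UMIs and 1 and 0 Krt15 UMIs, while the remaining lesional members held between 5 and 93 Krt5 UMIs. Of 131 genes that passed the rule for naming higher genes, 65 had more than 50% of their lesional UMIs in a single barcode.

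Without these 2 barcodes, 3 stress genes were still higher: Krt6a (27.1-fold), Krt16 (30.4-fold) and Fabp5 (7.94-fold), and Krt15 was still lower (0.180). The upper follicle list, with 4 of 7 comparable genes higher (Klk10, Cst6, Krt79 and Plet1) and a median log2 ratio of 3.50, had a median of −0.55 without the first barcode and −1.91 without both. Plet1, a surface protein of the junctional zone, remained higher without both (6.62-fold). Krt17 was 1.42-fold higher over all members (1.30 to 1.56), which did not pass the interval rule, and its direction turned without both barcodes (log2 ratio −0.39).

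**Figure D4:**
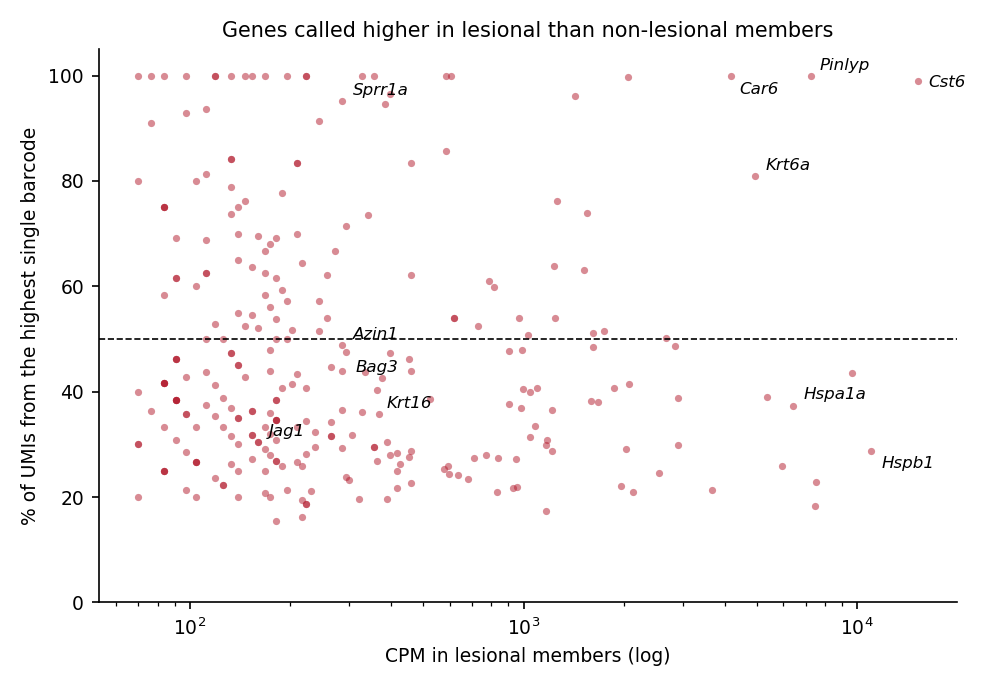
Genes counted as higher in lesional than in non-lesional members, with the CPM in lesional members on a logarithmic horizontal axis and the share of lesional UMIs held by the highest single barcode on the vertical axis; the dashed line marks 50%. Car6, Pinlyp, Cst6 and Krt6a lie above the line, while Hspb1, Hspa1a, Jag1, Bag3, Krt16 and Azin1 lie below it.

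The genes spread over several lesional barcodes were led by Azin1, an antizyme inhibitor that favours polyamine synthesis, with 41 UMIs in 9 lesional members and 0 in non-lesional members, at least 12.4-fold higher. Fhl2 followed with 20 and 0 UMIs (at least 6.07-fold higher), and Bag3, a co-chaperone of Hsp70, with 293 CPM in lesional and 7.65 CPM in non-lesional members (38.3, 6.50 to 1546). Odc1, the rate-limiting polyamine enzyme, was at 27.9 CPM in lesional, 23 CPM in non-lesional and 94.3 CPM in untreated members. Arg1 had no UMI in any member. S100a8 had 0, 1 and 0 UMIs and S100a9 1, 1 and 0 UMIs in lesional, non-lesional and untreated members, so these alarmins of psoriatic epidermis lay under the 3-UMI level of 20.9 CPM in lesional members.

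Of 32 comparable NF-kB and immediate early genes, a list that includes heat shock genes, 10 were higher in lesional members and 2 lower. The count of higher genes was 5 of 23 with members thinned to 2000 UMIs and 6 of 31 without the Krt17-rich non-lesional barcodes. Hspa1a, an inducible Hsp70, stood at 6418 CPM in lesional members, with barcodes between 0 and 20480 CPM around a median of 1172 CPM. In non-lesional members it stood at 1821 CPM, between 0 and 4614 CPM around a median of 1028 CPM, and the ratio was 3.52 (3.05 to 4.08). The groups overlapped over most of their range, and 3 lesional barcodes held 344, 314 and 175 of the 921 lesional Hspa1a UMIs. Without these 3 barcodes, chosen after the values were seen, Hspa1a was not higher (log2 ratio −0.78). Hspa1b had 5366 and 283 CPM (19.0, 13.6 to 27.1) and Hspb1, a small heat shock protein of keratinocytes, 11010 and 1905 CPM (5.78, 5.05 to 6.63). Without the same 3 barcodes the ratios were 4 for Hspa1b (2.71 to 6.02) and 4.16 for Hspb1 (3.59 to 4.83).

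Hspa1a and Hspa1b were also higher in leukocyte barcodes of the same libraries, at 13299 and 11804 CPM in lesional skin against 3086 and 287 CPM in non-lesional epidermis. Hspb1 was not, at 684 and 777 CPM. Over the whole list, 17 of 38 comparable genes were higher and 4 lower in lesional leukocytes, with a median log2 ratio of 0.64, beside 0.65 in members. What this shift in leukocytes shares with that in members was not tested. Hspa1a and Hspa1b are near-identical copies, as are several H2-Q genes, so the division of reads within each set is uncertain.

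Surface and signalling genes were higher in lesional members in several lists. Of 15 comparable MHC genes, 6 class I genes were higher, with H2-K1 at 836 CPM in lesional and 138 CPM in non-lesional members (6.07, 3.68 to 10.6) and B2m at 955 and 413 CPM (2.31, 1.67 to 3.23). The 4 that were lower, Cd74, H2-Aa, H2-Ab1 and H2-Eb1, are class II genes. None of 15 comparable MHC genes differed by the interval rule between non-lesional members and the other keratinocytes of that library. Lesional leukocytes also had more H2-K1 than non-lesional ones (1195 and 410 CPM). Of 8 comparable interferon-stimulated genes 0 were higher or lower.

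Of 7 comparable Notch genes, the ligand Jag1 had 23 UMIs in 9 lesional members and 1 in non-lesional members (20.9, 3.40 to 863), the receptor Notch1 stood at 397 and 91.8 CPM (4.33, 2.30 to 8.86), and the glycosyltransferase Lfng was lower (6.97 and 107 CPM). The EGF receptor ligands Hbegf (620 and 99.5 CPM; 6.24, 3.47 to 12.2) and Epgn (16 and 0 UMIs) were higher. Vegfa, Hif1a, Ddit4 and Car12 were the 4 of 21 comparable glycolysis and hypoxia genes that were higher, and 0 were lower. In leukocyte barcodes of the same libraries Jag1, Vegfa, Hif1a and Ddit4 were also higher in lesional skin, and Car12 was lower. Of 33 comparable glycolysis and hypoxia genes there, 13 were higher and 5 lower. What these shifts in leukocytes share with those in members was not tested.

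Of 27 comparable basement membrane and adhesion genes, 3 were higher in lesional members and 4 lower. Cd44, the hyaluronan receptor, stood at 732 CPM in lesional and 61.2 CPM in non-lesional members (12, 5.85 to 28.4), Epcam at 1213 and 122 CPM (9.90, 5.93 to 17.7) and Tnc, tenascin C, at 188 and 30.6 CPM (6.15, 2.14 to 24.2). Col17a1, the hemidesmosomal collagen that anchors follicle stem cells, stood at 537 and 1079 CPM (0.497, 0.372 to 0.661) and the laminin chain Lamb3 at 55.7 and 375 CPM (0.149, 0.0608 to 0.317). Egfl6 (6.97 and 176 CPM) and the tetraspanin Cd9 (1122 and 2854 CPM; 0.393, 0.325 to 0.474) were the other lower genes. Cdkn1a, the cell cycle inhibitor p21, stood at 592 and 84.2 CPM (7.04, 3.74 to 14.6). In leukocyte barcodes of the same libraries Tnc was also higher in lesional skin, and Col17a1, Lamb3 and Cd9 were also lower. Epcam was lower there, opposite to members. Of 28 comparable basement membrane and adhesion genes in leukocytes, 17 were higher and 6 lower. The relation to the shifts in members was not tested.

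The 6 follicle genes that were lower in lesional members were Krt15, Egfl6, Wif1, Id2, Dkk3 and Ctgf. Krt15 and Wif1 were also lower in lesional than in non-lesional leukocyte barcodes, where 10 of 25 comparable follicle genes were higher and 6 lower. Id2 stood at 76.7 CPM in lesional and 673 CPM in non-lesional members (0.114, 0.0548 to 0.214), Wif1 at 6.97 and 130 CPM (0.0536, 0.0013 to 0.342) and Dkk3 at 41.8 and 245 CPM (0.171, 0.0584 to 0.414). Pthlh stood at 453 and 321 CPM (1.41, 0.942 to 2.13), while Nrtn was lower at 105 and 780 CPM (0.134, 0.0723 to 0.231). Aspn had 0 UMIs in lesional members and 47 in non-lesional members, at least 17.2-fold lower. Wfdc3, Sncg, Ang and Dbp followed among the lower genes, with 0 lesional UMIs and 24, 22, 19 and 18 non-lesional UMIs.

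Members of non-lesional epidermis and of untreated epidermis, the pair of matched age and tissue, differed in few follicle genes by the interval rule. Of 2759 genes compared, 0.906% were higher and 1.3% lower in non-lesional members. Of 27 comparable follicle genes 1, Krt17, was higher (2.64, 2.12 to 3.32) and 1, Sfrp1, was lower (84.2 CPM in non-lesional and 330 CPM in untreated members; 0.255, 0.105 to 0.605), with a median log2 ratio of 0.24. Krt17 was lower instead without the 6 Krt17-rich non-lesional barcodes (log2 ratio −2.08), and 1 untreated barcode held 61.5% of the 91 untreated Krt17 UMIs. Krt15 had a ratio of 1.18 (1.07 to 1.30). No gene of the 19 comparable stem cell transcription factors or the 14 comparable BMP and TGF-beta genes was counted either way, which with 42407 untreated UMIs does not show that they were equal.

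Among the lists, that of NF-kB and immediate early genes, which respond quickly to stress, growth factors and tissue dissociation, held the most genes that were lower in non-lesional members. Of 30 comparable genes 9 were lower and 0 higher, with a median log2 ratio of −1.10, and 5 of 35 were lower with the ceilings read from thinned counts. Ier3, an NF-kB target, stood at 750 CPM in non-lesional members and 2712 CPM in untreated members (0.277, 0.209 to 0.365). Zfp36, which encodes the mRNA decay factor tristetraprolin, stood at 406 and 1462 CPM (0.277, 0.189 to 0.407), and the AP-1 subunits Jun at 1974 and 4339 CPM (0.455, 0.375 to 0.553) and Junb at 2142 and 4669 CPM (0.459, 0.381 to 0.553). Fos stood at 2150 and 2783 CPM and was not counted as lower.

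Summed over 38 genes of the list, single non-lesional members ran between 6852 and 87137 CPM around a median of 15336 CPM, and single untreated members between 4596 and 80355 CPM around a median of 41003 CPM. The groups overlapped over nearly their whole range. In leukocyte barcodes the same contrast had the opposite sign, with 20 of 38 genes higher in non-lesional epidermis and 0 lower (median log2 ratio 0.90). In other keratinocytes 13 of 35 comparable genes were higher and 0 lower (0.68), and all 12 mitochondrial genes were higher as well (3.11), beside the 106 of 144 untreated barcodes with under 0.1% mitochondrial UMIs. Set against the 38 untreated barcodes with at least 0.1%, 2 of 33 were higher and 2 lower in other non-lesional keratinocytes, and the median turned to −0.24. Within untreated epidermis, 19 of 30 list genes were higher in members than in the 144 other keratinocytes and 0 lower (1.68), and 4 of 25 were higher than in those 38 (0.88). Jun, for example, was 2.01-fold higher in non-lesional than in all untreated other keratinocytes (1.75 to 2.31) and 3.06-fold higher in leukocytes (2.81 to 3.33), although Ier3 was lower in other keratinocytes (0.653, 0.509 to 0.840).

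Outside the lists, 5 genes were named as higher and 9 as lower in non-lesional members. Aspn had 47 UMIs in non-lesional and 0 in untreated members (at least 5.08-fold higher), and Hes1, a Notch target, 27 UMIs in 14 non-lesional members and 0 in untreated members (at least 2.92-fold higher). With the ceilings read from thinned counts the direction of Hes1 turned (log2 ratio −0.60). Nrtn stood at 780 and 141 CPM (5.52, 2.45 to 15.4). Ccl27a had 44 and 1 UMIs, with 54.5% of the non-lesional UMIs in 1 barcode. On the lower side, Sfn, the epithelial 14-3-3 protein sigma, stood at 1262 CPM in non-lesional and 4103 CPM in untreated members (0.308, 0.247 to 0.383) and Actg1, gamma actin, at 3917 and 9928 CPM (0.395, 0.346 to 0.450). Cd59a, Fam46b, Tnfrsf11b and Gadd45b were also among them with Ier3 and Zfp36, and 1 barcode held 75.0% of the untreated Tnfrsf11b UMIs and 63.6% of those of Gadd45b. The class II genes Cd74, H2-Aa, H2-Ab1 and H2-Eb1 were the 4 of 9 comparable MHC genes that were higher, and the first 3 of them were the 3 of 5 of the macrophage, dendritic and Langerhans cell list. Of 9 comparable suprabasal genes 4 were higher, Krt1, Krt2, Krt10 and Calm4, and Dmkn was lower. In non-lesional members none of these class II genes and 4 suprabasal genes exceeded its level in leukocyte barcodes of that library.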

How the data were processed

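The deposited files hold UMI counts per gene and barcode for 31053 genes, made by the authors with CASAVA, Cell Ranger and the mm10 build per the submitters' processing notes, and with software version 3.0.2 per the file headers. How cells were called from empty droplets was not given in the sources used here. Skin was dissociated enzymatically and cleared of dead cells by flow sorting, and version 3 Chromium 3′ libraries were made, per the labels. Barcodes with at least 200 genes and under 20% mitochondrial UMIs were kept. UMIs were summed over members and, per library, over other keratinocytes, leukocyte barcodes (at least 1 Ptprc UMI, Krt5 and Krt14 under 1%) and fibroblast barcodes (collagens at least 1%), and scaled to CPM of all UMIs. Levels carry exact Poisson 95% intervals, ratios exact conditional binomial 95% intervals and shares exact Clopper-Pearson intervals, which cover counting error only. Genes of the gates were left out of counts. List medians use log2 with a pseudocount of 5 CPM. A ratio against 0 UMIs uses 3 UMIs over the group, is marked "at least" and is not a 95% limit. Named genes had at least 50 CPM on the higher side, an interval beyond 2-fold and a level not below leukocyte or fibroblast barcodes, with at most 15 per direction. The fibroblast part applied to lesional skin alone, since it needed 20 fibroblast barcodes and the epidermis libraries held 0 and 1. No Xist, Y-linked, haemoglobin, mitochondrial, predicted or ribosomal protein gene was named. For genes higher in lesional members those with at most 50% of UMIs in 1 barcode are also given.

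The members and lists were chosen with earlier results of these data known. The minimum of 20 members per library was lowered to 10 after the counts were seen, since lesional skin held 14 and untreated epidermis 10. Doublets were not removed in the main values; leaving out the top Scrublet scores (scanpy 1.11.5) removed 56, 66 and 7 barcodes and 0 members. Calculations used Python 3.11.15 with numpy 2.4.6, scipy 1.17.1 and pandas 2.3.3, figures used matplotlib 3.10.9, and the ratio calls were tested on simulated data. The simulated counts were independent Poisson draws of summed UMIs. They did not include UMIs gathered in single barcodes, so the simulation does not cover genes carried by 1 barcode. A few genes that met the naming rule are not reported here.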

Additional observations from a re-analysis of the deposited data

Results flagged for a closer look

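Members against other keratinocytes went in opposite directions in the epidermis libraries for 2 genes. Krtdap had a log2 ratio of 0.87 in non-lesional epidermis and −1.24 in untreated epidermis. mt-Atp6 had −0.75 in non-lesional epidermis and 2.70 in untreated epidermis, beside the median mitochondrial share of 0.0383% in other untreated keratinocytes. Of the 205 non-lesional Krtdap UMIs, 156 came from the 6 Krt17-rich barcodes. The differences between the libraries were not tested.

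The median log2 ratio of the NF-kB and immediate early list, non-lesional over untreated epidermis, was −1.10 in members, 0.68 in other keratinocytes and 0.90 in leukocyte barcodes. Against untreated other keratinocytes with at least 0.1% mitochondrial UMIs, the value in other keratinocytes was −0.24. The difference between these populations was not tested, and the 10 untreated members carry the first value.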

How the results depend on the processing

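No paired analysis was possible because each group had 1 library and no result came from a test. The share of members was 0.835% in non-lesional epidermis with a follicle gate of 5 UMIs, 0.766% with a gate without Postn and Cd34, and 0.139% without barcodes holding collagen, Lyz2 or Cd74 UMIs. It was 0.0754% in lesional skin, 0% in non-lesional epidermis and 0.110% in untreated epidermis with a keratin gate of 3%. With ceilings applied after thinning to 2000 UMIs it was 3.68, 3.68 and 2.40%.

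With members thinned to 2000 UMIs, 3 stress genes and 5 immediate early genes were higher and 3 follicle genes lower in lesional than non-lesional members. The count of stress genes was 3 without the barcodes richest in Cst6 and Krt6a and 13 with ceilings after thinning, and 6 immediate early genes were higher without the Krt17-rich barcodes. With ceilings after thinning, 5 immediate early genes were lower in non-lesional than untreated members and 1 basal gene was lower in non-lesional members than in others. Follicle genes higher in untreated members numbered 18 with no CPM minimum and 6 against other keratinocytes with at least 0.1% mitochondrial UMIs.

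The upper follicle median between lesional and non-lesional members turned to −0.60 with at least 0.1% mitochondrial UMIs, −0.23 with a gate of 2 UMIs, −0.95 with the gate after thinning, −0.36 with no CPM minimum, and −0.55 and −1.91 without 1 or both deep barcodes. Pinlyp turned to −0.0749 with the gate after thinning and −1.34 without both, Klk10 to −2.02 without both, and Gpx2, of the genes spread over barcodes, to −2.08 with members thinned. Between non-lesional and untreated members, Krt17 turned to −2.08 without the Krt17-rich barcodes and Hes1 to −0.60 with ceilings after thinning. Between lesional and non-lesional members, Hspa1a turned to −0.78 without the 3 barcodes richest in it. In other keratinocytes, 2 immediate early genes were higher in non-lesional than untreated epidermis at no less than 0.1% mitochondrial UMIs. The causes were not tested.

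Of the remaining alternative values, 128 list counts, 39 shares, 2033 list medians and 2784 gene ratios were labelled unchanged. For shares, list medians and genes that did not pass the interval rule, unchanged means inside the main interval. A list median or gene ratio near no difference can therefore have changed sign under this label. A list count labelled unchanged can differ somewhat from its main count. Of the gene ratios, 188 lost and 39 gained the interval rule, and 64 list medians and 39 gene ratios moved outside their main interval. Settings added after seeing the data were the ceilings after thinning, the barcodes left out, the mitochondrial minimum for other keratinocytes and a pseudocount of 25 CPM. Settings that left under 10 barcodes on a side were not run, which covers 8 settings in each comparison with untreated members and, in the other comparisons, a keratin gate of 3% and the gate on collagen, Lyz2 and Cd74. The mean of CPM over barcodes gave no counts of calls. The depth of 42407 UMIs in untreated members limits every value that uses them.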
